A study of Caenorhabditis elegans with 24 samples.

Results

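To ask what the bon144 allele of bcl-11 does to the transcriptome of insulin receptor mutants, the double mutant daf-2;bcl-11(bon144) was compared with the single mutant daf-2. The comparison used 8 of the 24 libraries of the study, 4 of each genotype, and covered the 14190 of 19718 genes whose expression averaged 3 or more over these 8 libraries. The genes nearest this limit were T05A7.13, kept with a mean of 3.00002, and AH10.2, left out with 2.99977. Expression is given as the regularized log (rlog), a normalised value on a log2 scale, so that a difference of 1 is a 2-fold change. Of these genes, 17 lie in a repeated stretch of chromosome V between 2340000 and 2560000 (assembly WBcel235), and they are described apart from the 14173 genes outside it.

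Both genotypes carried daf-2(e1370), a reduction-of-function mutation of the insulin/IGF-1 receptor gene, and the double mutant was in addition homozygous for bcl-11(bon144), an in-frame deletion-insertion in a conserved domain of BCL-11 that was made by gene editing and backcrossed. A second double mutant, daf-2;bcl-11(bon125), carries a frameshift allele with intact zinc fingers and an insertion. It was in the same table and fit, and is used where the alleles are compared. Wild type (wt, strain N2) and the single mutants bcl-11(bon144) and bcl-11(bon125), 4 libraries each, were normalised separately and are set beside these values. Whole hermaphrodites were collected on the first day of young adulthood after growth at 20 °C on Escherichia coli OP50. Each library is 1 sample of whole adult animals, so fewer cells of a type and less RNA per cell cannot be told apart. Effects of bon144 cannot be told apart from other differences between the strains.

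In nematodes the receptor DAF-2 signals through a phosphoinositide kinase cascade that keeps the FOXO transcription factor DAF-16 out of the nucleus. When the receptor is impaired, DAF-16 turns on genes of stress resistance, metabolism and longevity, and larvae can enter the arrested dauer state more readily. BCL-11 is the nematode member of the BCL11 family of zinc finger transcription factors, which in mammals act in neurons and blood cells and associate with SWI/SNF chromatin remodelling complexes.

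The libraries of a genotype correlated with each other with a mean Pearson's r of 0.985 to 0.995 across genes. Replicate 4 of daf-2 stood apart, at 40.8 on the first principal component, which held 32.7% of the variance, while the other 11 libraries of the daf-2 background lay between -15.7 and 10.5. In that library the sperm genes of a fixed list (72 genes) had a mean rlog of 7.27, against 5.09 to 5.77 in the other 3 daf-2 libraries, and the cuticle collagen genes had 8.97, against 7.45 to 7.79. Of 26 defining markers of sperm, oocyte, embryo, male, germline, intestine, muscle, neuron and cuticle, 25 passed the filter and 0 were called. As 0.0564% of all genes tested were called, a count of 0 says little about the makeup of the samples. Without that library 6 genes were called in place of the 8 given below, 4 of them in the repeated stretch. The marker left out by the filter was the male gene clec-207, which stayed between -1.04 and -0.99 in the 8 libraries.

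The transcript of bcl-11 itself (WBGene00017430, plus strand of chromosome V, 6356025 to 6362997) was examined first. Its rlog was 6.72, 7.26, 7.03 and 7.31 in replicates 1 to 4 of daf-2 and 7.11, 6.88, 7.05 and 7.02 in the double mutant. The groups overlapped and differed by -0.06 (two-sided exact permutation test of 4 against 4 libraries, p = 0.686, smallest possible 0.0286). The allele changes the coding sequence, so a transcript level does not check the genotype. The daf-2 transcript differed by 0.07 and that of daf-16 by -0.07 on the log2 scale, and both overlapped between the genotypes.

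Across the whole transcriptome few genes differed. A gene was called when limma gave it a Benjamini-Hochberg adjusted p under 0.05 over all genes tested and a change above 1.5-fold. By this rule 8 genes were called, 0.0564% of those tested. Of these, 7 rose (0.0493%) and 1 fell (0.00705%). The stretch held 6 of the 8 and the rest of the genome 2. The 8 genes have 6 distinct sets of values, because 2 pairs of genes in the stretch have the same values in every library. The median log2 fold change of all genes was 0.00, and 48.3% of genes were higher in the double mutant. At an unadjusted p under 0.05 stood 495 genes (3.49%), 204 higher (1.44%) and 291 lower (2.05%). The 4 and 4 libraries did not overlap for 329 genes (2.32%), 1.16% of all genes in each direction, and 1560 genes (11.0%) differed in 1 direction in all 4 same-numbered pairs. By size alone, 53 genes had a fitted difference above 1.5-fold.

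**Figure D1:**
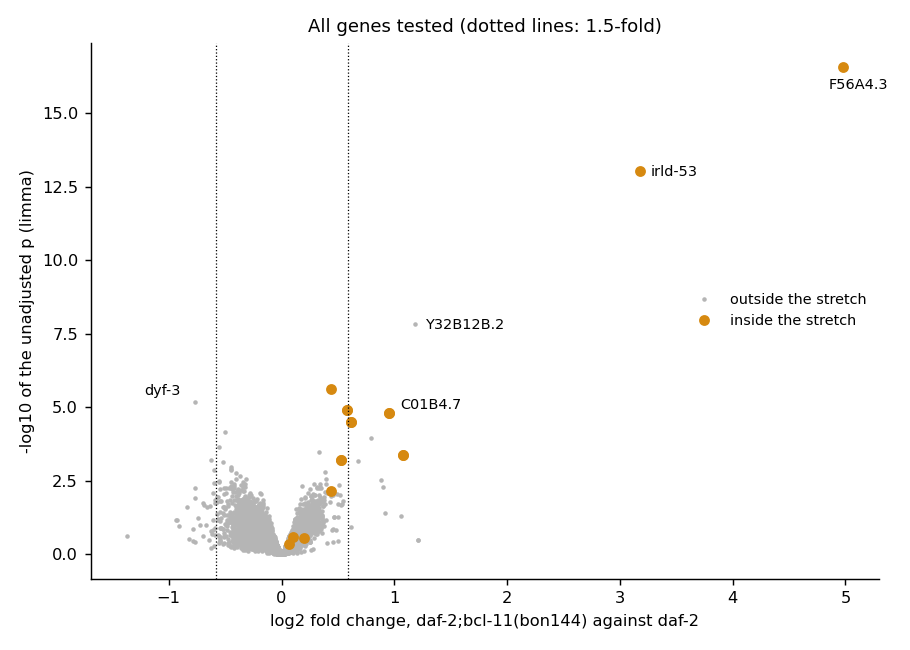
Log2 fold change of each gene tested (x) against -log10 of its unadjusted p (y) for daf-2;bcl-11(bon144) minus daf-2, 4 libraries each. Orange points lie in the repeated stretch of chromosome V, and F56A4.3 (4.98) and irld-53 (3.18) stand far to the right of all genes outside it.

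The repeated stretch is an array of gene families that the assembly holds as copies in tandem. It spans 59 annotated genes, of which 48 are protein-coding, 10 are pseudogenes and 1 is a non-coding RNA. Genes numbered after the clones F56A4, C01B4 and Y19D10A lie there with C-type lectin, monocarboxylate transporter-like (mct) and insulin/EGF-receptor L domain (irld) genes, and 20 genes have the names of chemoreceptor families (sr and str). In the annotation 42 of the 59 share an Ensembl name with a partner, and the partners start 108279 bp apart at the median. The table held 30 of the 59 genes. The filter left 17 of them, with 13 below it (nearest to the limit irld-35 with a mean of 3.15 inside and Y45G12C.3 with 2.99 outside), and 0 of the 20 chemoreceptor genes passed. Reads of copies that are alike cannot be assigned to 1 of them, so the 10 tested genes that share their values with a partner are uncertain as single genes, and the 17 genes hold 12 distinct sets of values.

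All 17 genes were higher in the double mutant. The median log2 fold change was 0.58, with a range from 0.07 to 4.98, and 6 genes were called (35.3%). The median depends on the filter. The 13 tabled genes below it differed by -0.01 to 0.16 (12 higher), so that the median was 0.18 over all 30 genes of the table, and with a mean rlog of 5 or more it was 0.78. The values of the 4 and 4 libraries did not overlap for 13 of the 17 (76.5%, against 1.16% of all genes in this direction), and 14 were higher in all 4 same-numbered pairs. Counting genes of identical values once left 12, all higher, with a median of 0.55 and 8 without overlap. Genes in a row on 1 chromosome that share reads are not replicates, so these counts describe the stretch and have no test.

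The gene with the largest difference was F56A4.3 (WBGene00018911, 2453414 to 2456147 on the plus strand, protein-coding), which has no partner of the same name in the stretch. Its rlog was 5.02, 5.02, 4.94 and 5.04 in daf-2 and 9.85, 9.97, 10.18 and 9.95 in the double mutant. The groups were thus far apart, and each varied by little. It rose by 4.98 (SE 0.10, 95% interval 4.77 to 5.20, adjusted p of limma 3.9e-13), a 31.6-fold difference on the rlog scale. In daf-2;bcl-11(bon125) the 4 libraries had 5.15, 5.03, 5.05 and 4.87 and did not stand apart from daf-2. In the table of the wild-type background, which was normalised separately and is set beside these values without a test, the gene stood at 10.20 ± 0.14 in wt, 10.67 ± 0.18 with bon144 and 9.35 ± 0.39 with bon125 (SD, n = 4). Side by side, the level in the double mutant with bon144 was nearer to those of the wild-type background than to those of the other genotypes with daf-2(e1370).

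irld-53 (WBGene00021222, 2348215 to 2350325, minus strand), a member of the insulin/EGF-receptor L domain family, named for a domain that it shares with the extracellular part of such receptors, was likewise low in daf-2 and high in the double mutant. It had 4.80, 4.67, 4.85 and 4.72 in daf-2 and 7.72, 7.82, 8.25 and 7.96 in the double mutant, again without overlap. It rose by 3.18 (SE 0.11, 95% interval 2.93 to 3.42, adjusted p of limma 6.6e-10), or 9.03-fold. In daf-2;bcl-11(bon125) it had 4.73 ± 0.09, and in the wild-type background it had 8.52 ± 0.25 in wt, 9.01 ± 0.17 with bon144 and 7.64 ± 0.17 with bon125 (SD, n = 4). Its partner in the annotation is irld-35 (2456176 to 2458286, minus strand), 107961 bp further on, which lies next to F56A4.3. irld-35 had 2.93 in each daf-2 library and 3.47, 3.40, 3.20 and 3.43 in the double mutant. This difference of 0.44 had an adjusted p of 0.0086 but stayed below 1.5-fold, so irld-35 was not called. It passed the filter only through the double mutant, so its p and its place in the counts above are no support. Without it 16 of 16 genes were higher, 12 without overlap. rlog draws weakly expressed genes towards their mean, and reads of copies that are alike cannot be assigned to 1 of them. The true size of the irld-35 difference is therefore uncertain.

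The other called genes of the stretch are pairs with identical values. Y19D10A.4 (2385956 to 2390722) and C01B4.7 (2494235 to 2499001), both on the plus strand, had 7.17, 7.39, 6.92 and 7.03 in daf-2 and 8.26, 7.93, 7.90 and 8.24 in the double mutant. They rose by 0.95 (SE 0.15, adjusted p of limma 0.0246). Y19D10A.16 (2392772 to 2394147) and C01B4.6 (2501051 to 2502426), also on the plus strand, had 6.12, 6.23, 6.29 and 6.11 in daf-2 and 6.85, 6.69, 6.66 and 7.00 in the double mutant. They rose by 0.62 (SE 0.10, adjusted p 0.0404). In neither pair did the libraries overlap. These calls were fragile. With a block for the replicate number the first pair kept an adjusted p of 0.0271 while the second had 0.137 and was not called, and leaving out 1 library at a time took the first pair's call in 7 of 8 fits, all but that without replicate 2 of daf-2, and the second pair's in 8 of 8. Fitting only the 8 libraries compared took both. Counting identical genes once kept the first pair's set of values among the calls but not the second's. C01B4.7 overlaps mct-2 on the opposite strand, and the libraries do not keep the strand.

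**Figure D2:**
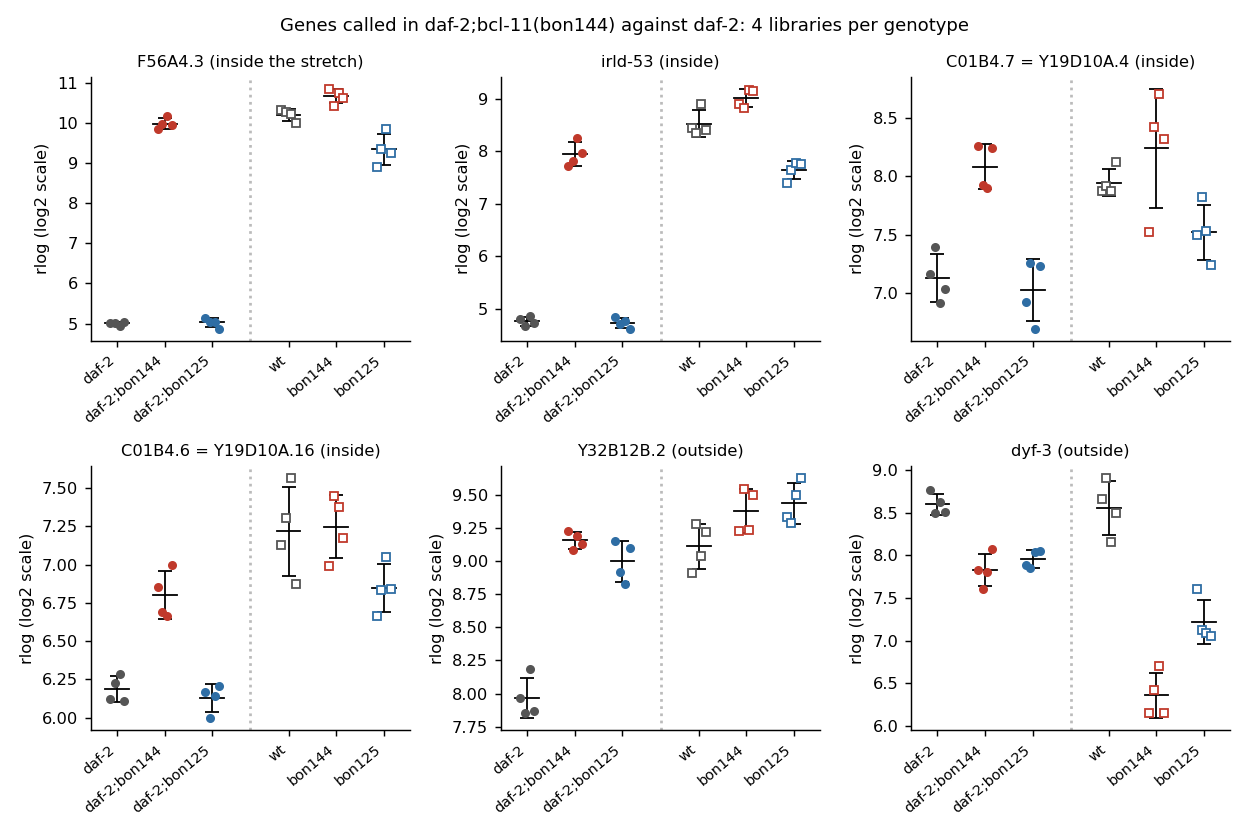
rlog of each library (points), mean (horizontal line) and SD (bars, n = 4) of the 6 distinct sets of values called. Filled circles are the daf-2 background and open squares, right of the dotted line, the wild-type background, which was normalised separately. In the stretch the daf-2 and daf-2;bcl-11(bon125) libraries lie together below daf-2;bcl-11(bon144), while for Y32B12B.2 and dyf-3 both double mutants lie together.

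The 11 genes of the stretch that were not called had log2 fold changes of 0.07 to 1.08, with a median of 0.52. The C-type lectin gene clec-209 (2351676 to 2352932) and F56A4.2 (2459637 to 2460893) form a pair of identical values, with 10.55, 10.75, 10.72 and 11.40 in daf-2 and 12.22, 11.55, 11.73 and 12.23 in the double mutant. The groups did not overlap, but the libraries varied more than those of the called genes. The difference of 1.08 (SE 0.24) had an adjusted p of limma of 0.347, which became 0.0473 and passed the call when the replicate number was a block. Y19D10A.5 (2382233 to 2384422) and C01B4.8 (2490512 to 2492701), again identical, had 5.37, 5.35, 5.38 and 5.55 in daf-2 and 5.96, 5.99, 5.98 and 6.04 in the double mutant. Their difference of 0.58 had an adjusted p of 0.0246 and lay just under the 1.5-fold limit. Y19D10A.11 and its identical partner F56A4.12 differed by 0.52 (SE 0.12) and did not overlap between the groups. The monocarboxylate transporter-like genes mct-1 and mct-2 differed by 0.10 and 0.07, Y19D10A.8 by 0.44 and F56A4.10 by 0.20, and these 4 overlapped between the groups. For F56A4.10 the difference came from replicate 1 of the double mutant alone, at 4.17 against 3.18 to 3.25 in the others, and it was -0.04 without that library.

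**Figure D3:**
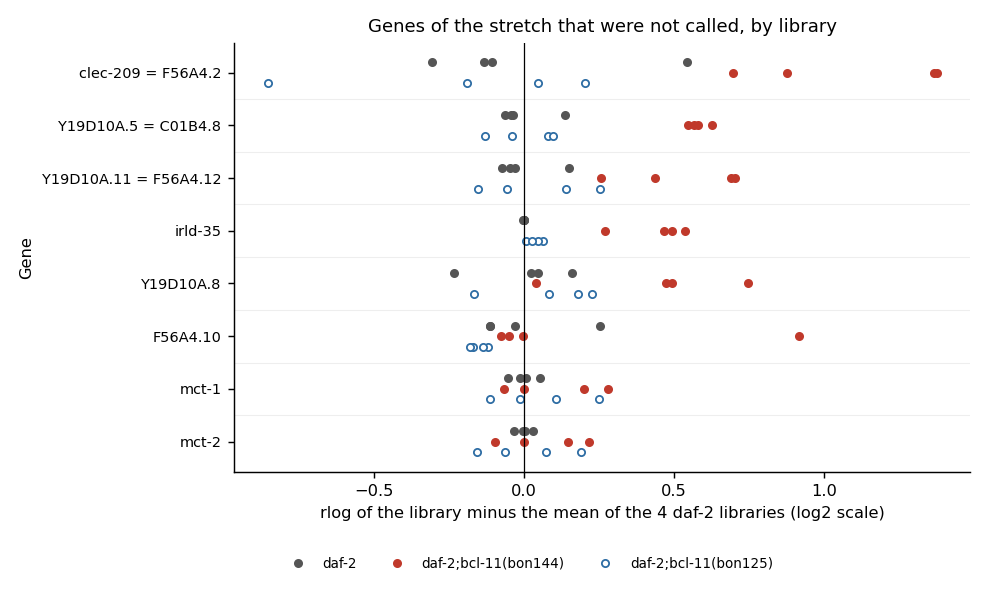
rlog of each library minus the mean of the 4 daf-2 libraries (x, log2 scale) for the 8 distinct sets of values of the stretch that were not called (y). The daf-2;bcl-11(bon144) points lie right of the daf-2 points without overlap in the upper 4 rows, while those of daf-2;bcl-11(bon125) lie around 0.

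The differences were not seen in the tested genes beside the stretch. No gene between C01B4.6 and the right border was tested, so where they end on that side is not known. In the 100 kb before the stretch, 19 genes were tested, with a median of -0.04 and a range of -0.16 to 0.29. In the 100 kb after it 11 genes had a median of -0.03 and a range of -0.29 to 0.08. None of these 30 genes was called by limma, 1 had an unadjusted p under 0.05, and 8 of them were higher in the double mutant. Within 500 kb on both sides, all genes tested lay between -0.39 and 0.29, and 36 of them were higher. The bcl-11 gene itself is on the same chromosome but outside these flanks. Around it, 28 genes within 100 kb had a median of -0.02 and a range of -0.66 to 1.06, with 0 called and 3 at an unadjusted p under 0.05 (3.39% of all genes outside the stretch). The ends of that range, named after their values were seen, were gfi-1, with 11.66, 12.68, 11.73 and 12.38 in daf-2 and 11.43, 11.28, 11.19 and 11.91 in the double mutant (-0.66, SE 0.26, and -1.07 with bon144 in the wild-type background), and F57F4.2 (1.06, SE 0.49). Both overlapped between the groups and had an adjusted p of limma of 1.00. The 20 genes around daf-2 on chromosome III had a median of -0.03 with 0 at that level and 0 called.

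**Figure D4:**
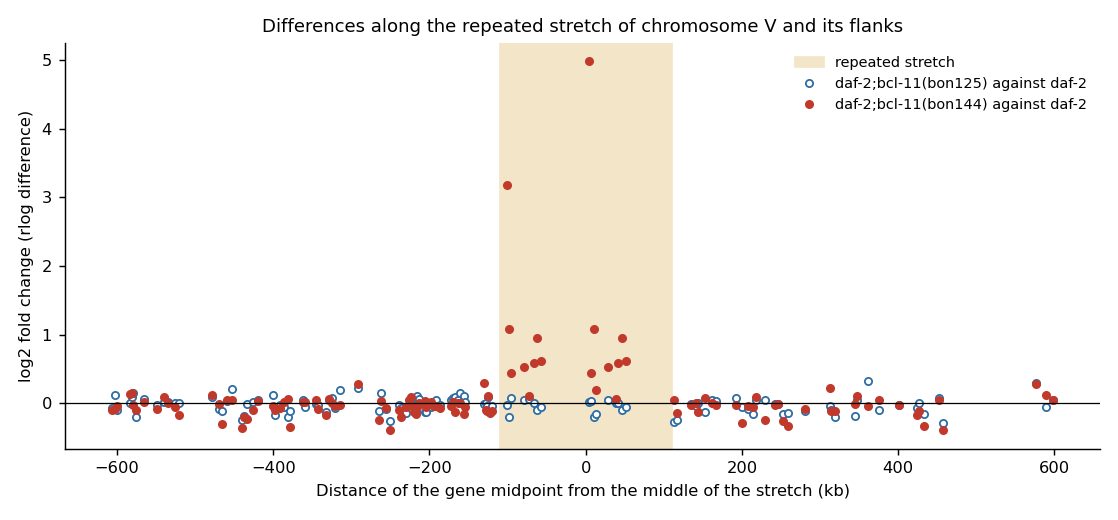
Log2 fold change relative to daf-2 (y) of the genes tested by the distance of their midpoint from the middle of the repeated stretch in kb (x). Filled points are daf-2;bcl-11(bon144) and open points daf-2;bcl-11(bon125). The filled points lie at 0.07 to 4.98 inside the shaded stretch and between -0.39 and 0.29 outside it. No gene between C01B4.6 and the right border of the stretch was tested.

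Within the daf-2 background the alleles differed in the stretch. With bon125 in place of bon144 (2 genes called relative to daf-2 in the genome, 0.0141%), 9 of the 17 genes were higher, with a median of 0.00 and a range of -0.20 to 0.08. Both comparisons share the daf-2 libraries, and the direct contrast of the double mutants was therefore used. Between them 7 genes were called in the genome (0.0493%), all higher with bon144, and 6 of the 7 were in the stretch. The seventh, C55C3.3 on chromosome IV (named after its values were seen), differed between bon144 and daf-2 by 0.02 and was lower in the bon125 double mutant, by -1.22 (adjusted p of limma 0.0023). In the stretch F56A4.3 was higher by 4.96 (adjusted p of limma 4.1e-13), irld-53 by 3.20 (adjusted p 5.9e-10), C01B4.7 with its partner by 1.05 (adjusted p 0.0148) and C01B4.6 with its partner by 0.67 (adjusted p 0.0182). All 17 genes had the higher mean with bon144, with a median difference of 0.58. In the wild-type background, whose libraries are others, 21 genes of the stretch were tested in bcl-11(bon144) against wt. There 16 were higher with bon144, the median was 0.06 and 0 were called (against 0.0669% of all genes). F56A4.3 differed by 0.47 (unadjusted p of limma 0.0180, adjusted p 0.626) and irld-53 by 0.49 (0.0059, 0.480) in that comparison. With bon125 they differed from the same wt libraries by -0.86 (adjusted p of limma 0.524) and -0.88 (adjusted p 0.130), so bon144 had the higher mean of the alleles in this background as well, and that difference was not tested.

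Outside the stretch 2 of 14173 genes were called (0.0141%), 1 higher (0.00706%) and 1 lower (0.00706%). Y32B12B.2 (WBGene00012522, plus strand, 16538396 to 16549849, protein-coding) lies on chromosome V as well, far from the stretch. Its rlog was 7.96, 7.86, 8.18 and 7.87 in daf-2 and 9.22, 9.08, 9.19 and 9.13 in the double mutant. Each double mutant library was above each daf-2 library. It rose by 1.19 (SE 0.10, 95% interval 0.97 to 1.41, adjusted p of limma 6.9e-05), or 2.28-fold, and was called in all 8 fits that left out 1 library. The 20 genes tested within 100 kb on either side had a median of -0.10 and a range of -0.25 to 0.17, with 0 called and 1 at an unadjusted p under 0.05.

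Y32B12B.2 rose with bon125 too. That double mutant had 9.15, 8.91, 8.82 and 9.10, which is 1.03 above the same daf-2 libraries (adjusted p of limma 0.00126), and the difference between the double mutants was 0.16 (95% interval -0.06 to 0.38). The separately normalised table gave 9.11 ± 0.17 in wt, 9.38 ± 0.17 with bon144 and 9.43 ± 0.16 with bon125 (SD, n = 4), so that, side by side, daf-2 had the lowest level of the 6 genotypes. In the wild-type background bon144 differed from wt by 0.26 (95% interval -0.01 to 0.54, adjusted p of limma 0.726).

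dyf-3 (WBGene00001119, minus strand of chromosome IV, 3396581 to 3399231) was the gene that fell. It encodes a protein of intraflagellar transport that ciliated sensory neurons need to build their cilia, and mutants fail to take up dye from the surroundings. Its rlog was 8.76, 8.50, 8.63 and 8.51 in daf-2 and 7.83, 7.61, 7.80 and 8.07 in the double mutant, without overlap. It fell by 0.77 on the log2 scale (SE 0.11, 95% interval -1.01 to -0.53, adjusted p of limma 0.0190), or 1.71-fold. The call held with the replicate number as a block (adjusted p 0.0271) and in 3 of 8 fits that left out 1 library. It was lost when only the 8 libraries compared were fitted (adjusted p 0.0819), without replicate 1 or 3 of daf-2 and without replicate 1, 2 or 3 of the double mutant, where the adjusted p reached at most 0.104.

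The lower level of dyf-3 was measured with both alleles and in both backgrounds. daf-2;bcl-11(bon125) had 7.89, 7.85, 8.04 and 8.05, a difference from daf-2 of -0.64 (adjusted p of limma 0.168), and the double mutants differed by -0.13 (95% interval -0.37 to 0.11). In the wild-type background, in other libraries, dyf-3 had 8.56 ± 0.31 in wt and 6.36 ± 0.27 with bon144 (SD, n = 4) and fell by 2.19 on the log2 scale (95% interval -2.60 to -1.78, adjusted p 0.000354). With bon125 it had 7.22 ± 0.26 there, a difference from wt of -1.34 (adjusted p of limma 0.0778). The bon125 libraries, at 7.05 to 7.61, lay above those of bon144, at 6.15 to 6.71, and this difference between the alleles was not tested. Both intervals of bon144, one per background, lie below 0 and do not overlap, but the tables were normalised separately and the difference between backgrounds was not tested here. The 16 genes tested within 100 kb of dyf-3 had a median of -0.06 and a range of -0.20 to 0.07, and 0 had an unadjusted p under 0.05. Among 61 tested genes of cilia and intraflagellar transport, dyf-3 was the 1 gene with an unadjusted p under 0.05. The list had a median of -0.02 with 24 genes higher and 37 lower. Next to it in p stood dylt-2, a dynein light chain gene, at -0.12 (SE 0.06).

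The genes outside the stretch that came nearest to a call without reaching it included larger and smaller differences. By the rule of the 10 higher and 10 lower genes with the smallest p among those without overlap and with 1 direction in all 4 pairs, saeg-2 followed Y32B12B.2. SAEG-2 is a nuclear protein that acts downstream of the cGMP-dependent protein kinase EGL-4. It had 7.14, 7.15, 7.00 and 6.99 in daf-2 and 8.15, 7.84, 7.93 and 7.52 in the double mutant, a difference of 0.79 (SE 0.15, adjusted p of limma 0.119). Replicate 4 of the double mutant was the lowest of its group, yet above all daf-2 libraries. daf-2;bcl-11(bon125) had 7.18 ± 0.28 (SD, n = 4), and the double mutants differed by 0.68 (95% interval 0.36 to 1.00, adjusted p 0.364). The other higher genes differed by 0.29 to 0.68 and had adjusted p-values of 0.310 or more. Among them are the autophagy gene epg-4 (0.29), the F-box gene fbxb-42 (0.34) and vet-1 (0.51), named for its transcription early in embryos. Y68A4A.13 had 5.77, 5.70, 5.98 and 5.89 in daf-2 and 6.28, 6.66, 6.75 and 6.36 in the double mutant (0.68, SE 0.16).

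Among the lower genes, cnc-3 came second to dyf-3. It encodes a caenacin, a short antimicrobial peptide of the skin, and had 9.85, 10.09, 10.00 and 10.07 in daf-2 and 9.54, 9.45, 9.53 and 9.48 in the double mutant. Its libraries within a genotype were close together, and the difference of -0.50 (SE 0.09, adjusted p of limma 0.0826) did not reach either limit of the call. In the wild-type background it was -0.62 with bon144 (adjusted p 0.249). amt-1, of the ammonium transporter family, had 9.06, 9.54, 9.01 and 9.14 in daf-2 and 8.69, 8.52, 8.67 and 8.66 in the double mutant (-0.56, SE 0.11, adjusted p 0.232). The lectin gene clec-3 differed by -0.45 and overlaps C41H7.2, at -0.20, on the opposite strand. The other 6 genes of this set, C10C5.3, Y102A5C.36, M04C9.4, Y105C5B.5, Y57G11C.42 and C15C6.1, differed by -0.52 to -0.32.

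**Figure D5:**
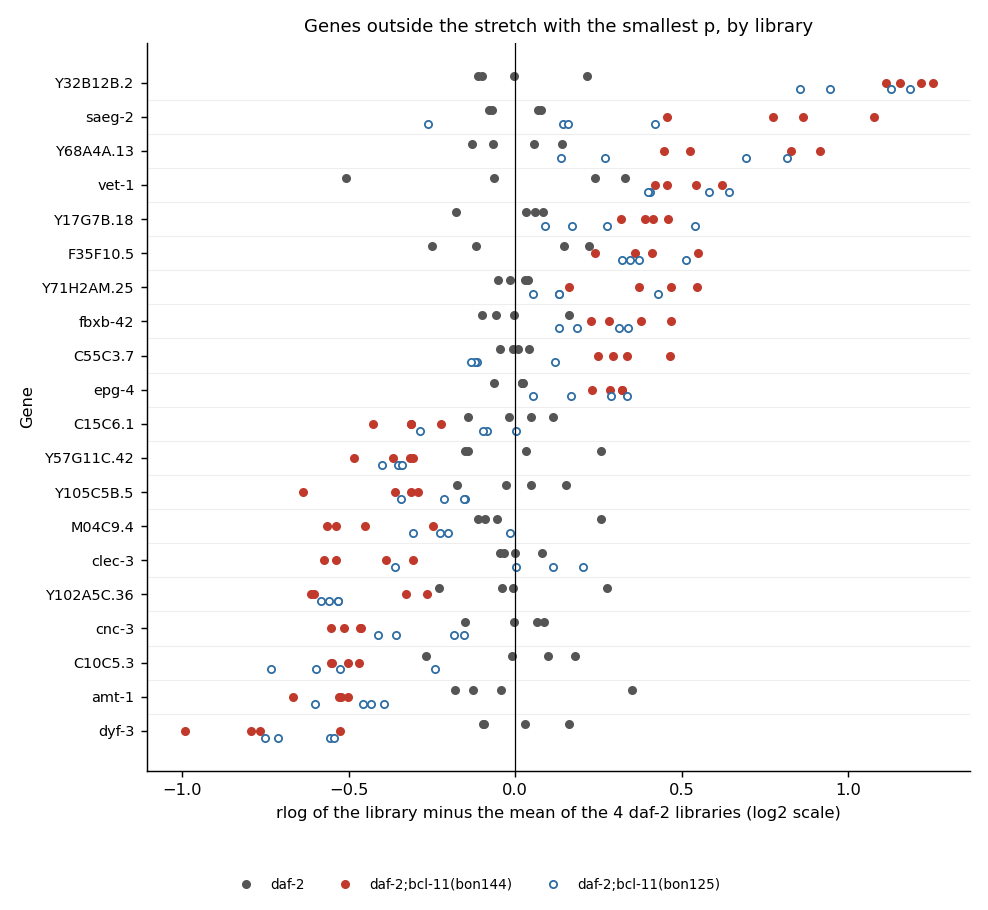
rlog of each library minus the mean of the 4 daf-2 libraries (x, log2 scale) for the 20 genes outside the stretch with the smallest p (y), which were chosen for groups that do not overlap. The daf-2;bcl-11(bon125) points lie beside those of daf-2;bcl-11(bon144) for Y32B12B.2 and dyf-3 and nearer to 0 for saeg-2, C55C3.7 and clec-3.

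The same genes were then looked up in bcl-11(bon144) against wt, which shares no library with this comparison. Of the 20 genes, 19 were tested there, and 16 had the same sign, 7 of 9 higher and 9 of 10 lower ones. An unadjusted p under 0.05 in the same direction was reached by 0 of the higher genes and by 4 of the lower ones (dyf-3, cnc-3, clec-3 and Y105C5B.5), beside 2.74% and 4.35% of all genes in that comparison. Over all 481 genes outside the stretch at an unadjusted p under 0.05 in the daf-2 background (3.39%), 442 were tested in the wild-type table and 326 of them (73.8%) had the same sign, beside 8191 of all 13123 genes (62.4%). Genes are not independent replicates, and these shares have no test.

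Outside the stretch 43 genes differed by more than 1.5-fold and were not called, 9 higher and 34 lower. This balance rested on replicate 4 of daf-2. Without it, a count added after the data were seen, 9 of the 34 lower genes stayed past 1.5-fold and 7 were higher, while all 9 higher genes stayed past it, and over all genes outside the stretch 40 were higher and 11 lower by more than 1.5-fold, called or not. The 43 genes had wide errors. Their SE was 0.38 at the median, against 0.12 for all genes. They include 9 cuticle collagen genes. col-7, with the lowest value of all (-1.37, SE 1.12, named after its values were seen), had 4.79, 4.95, 4.66 and 11.29 in daf-2 and 4.38, 4.57, 4.50 and 6.75 in the double mutant, so that replicate 4 was far above the other libraries in each group. In 8 of the 43 genes the groups did not overlap, beside 2.32% of all genes tested. The 43 were picked by the size of the difference in these same libraries, so the higher share is no support. Among these were scl-13, of a family of secreted CAP domain proteins (0.90, SE 0.27), and the lectin gene clec-47 (-0.77, SE 0.24), both with an adjusted p of limma of 1.00 and named after their values were seen. For 90.6% of the genes outside the stretch, the 95% interval of the log2 fold change lay within 1.5-fold in both directions, with a median half-width of 0.26, and 1327 genes had wider limits.

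Genes of known pathways were then counted by list. Apart from dyf-3, cnc-3 and clec-3, each gene named from these lists outside the stretch had an adjusted p of limma of 1.00. Neither the genes of the insulin pathway nor those of its output held a call. As 0.0141% of the genes outside the stretch were called, this says little about these lists. An unadjusted p under 0.05 was reached by 3.39% of the genes outside the stretch. Of 22 genes from the receptor to DAF-16, 11 were higher and 11 lower, the median was 0.01, and 0 had an unadjusted p under 0.05. The smallest p belonged to shc-1, which encodes an adaptor protein of the pathway, with -0.28 (SE 0.13). Of 22 genes known to be induced by DAF-16, 4 were higher and 18 lower with a median of -0.10, and 0 had a p under 0.05. In the wild-type background 7 of these 22 were lower and 0 higher with bon144 at that p (4.35% of all genes lower there). Other lists leaned lower there too, such as histones (30 of 66 lower, 0 higher) and C-type lectins (13 of 83 lower, 1 higher). Cuticle collagens leaned the other way, with 22 of 122 higher and 2 lower. The isocitrate lyase gene icl-1 of the DAF-16 list opens the glyoxylate shunt. It had 12.83, 13.75, 13.06 and 13.63 in daf-2 and 12.99, 12.73, 12.93 and 13.26 in the double mutant. Its groups overlapped (-0.34, SE 0.21). The mean of the DAF-16 list lay between 11.02 and 11.66 in the daf-2 libraries and between 11.04 and 11.43 in those of the double mutant.

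Among 22 insulin-like peptide genes, ligands of the receptor, 12 were higher and 10 lower (median 0.01). Lower at an unadjusted p under 0.05 were ins-22 and ins-23. ins-23 had 9.68, 10.03, 9.75 and 10.26 in daf-2 and 9.54, 9.28, 9.35 and 9.59 in the double mutant (-0.49, SE 0.15). ins-22 had 10.20, 10.09, 10.13 and 10.59 against 9.87, 9.93, 9.89 and 9.79 (-0.38, SE 0.12). Neither gene's groups overlapped, and both had a lower mean with bon144 in the wild-type background as well, by -0.50 and -0.30. Outside the stretch 2.05% of all genes were lower at this p and 1.34% higher.

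Stress genes were counted in the same way. As 3.39% of all genes outside the stretch had an unadjusted p under 0.05, counts of 0 or 1 in these short lists say little. Small heat shock genes (17 tested) had a median of -0.07 with 0 genes at an unadjusted p under 0.05. hsp-16.41, of the family induced by heat, had 6.07, 7.01, 5.57 and 6.48 in daf-2 and 5.27, 5.63, 5.80 and 6.19 in the double mutant (-0.56, SE 0.28), with overlap. Among 36 genes of larger chaperones 1 was lower at that p, the myosin chaperone gene unc-45 (-0.24). Of 28 genes of osmotic stress, trehalose, glycerol and LEA proteins 1 was lower, gpdh-1, which encodes the glycerol-3-phosphate dehydrogenase induced by high salt. It had 7.37, 7.71, 8.37 and 7.23 against 7.28, 7.14, 6.92 and 7.00 (-0.59, SE 0.21), with overlap. Superoxide dismutases, catalases and peroxiredoxins (19 genes) had a median of -0.02 and genes of the unfolded protein responses (28) one of -0.06, both with 0 at that p. Among 32 other stress regulators, vhl-1, which encodes a subunit of the ubiquitin ligase that marks HIF-1 for degradation, was higher at that p by 0.20 (SE 0.09). Of 14 subunits of SWI/SNF complexes 10 were higher and 4 lower, with a median of 0.08 and 0 at that p.

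In the immune and detoxification families a few more members stood at low p-values, without a call. Of 99 C-type lectin genes outside the stretch, 10 were lower and 2 higher at an unadjusted p under 0.05. The shares of all genes there were 2.05% and 1.34%, and the median of the lectin list was -0.11. The mean of this list was 7.19 to 7.52 in the daf-2 libraries and 7.16 to 7.27 in the double mutant. Of 81 lysozyme, saposin and antimicrobial peptide genes 5 were lower and 0 higher at that p (median -0.10). The invertebrate lysozyme gene ilys-3 had 7.38, 7.77, 8.01 and 7.86 in daf-2 and 6.59, 7.28, 7.36 and 7.64 in the double mutant (-0.54, SE 0.20), and its groups overlapped. Cytochrome P450 and UDP-glucuronosyltransferase genes (125) had 2 higher and 2 lower with a median of -0.03, and glutathione S-transferases (39) had 2 higher and 0 lower with a median of 0.01. Of 298 F-box, BTB and MATH domain genes 223 were higher (median 0.06), 10 of them at that p against 5 lower. Nuclear hormone receptors (180) had 1 higher and 2 lower with a median of -0.02. Among them nhr-80, which controls fatty acid desaturation, had 8.09, 8.45, 8.01 and 8.37 in daf-2 and 7.92, 7.93, 8.00 and 7.85 in the double mutant (-0.31, SE 0.12).

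Among the lists of reproduction and cuticle, those of sperm and collagen genes were highest in replicate 4 of daf-2. Of 72 sperm genes 67 were lower in the double mutant, with a median of -0.28, 2 lower and 0 higher at an unadjusted p under 0.05. The mean of the list had its highest value, 7.27, in that library, and was 5.22 to 5.77 in the double mutant. Without replicate 4 of daf-2 the median was 0.13. Of the cuticle collagen genes 98 were lower and 41 higher (median -0.11), with 3 lower and 1 higher at that p, and without that library the median was 0.12. The 7 genes of yolk proteins, which the intestine makes for oocytes, and of their receptor were all lower, with a median of -0.30 and 0 at that p. Their mean was highest in replicate 2 of daf-2 (18.01), followed by replicate 4 (17.90), and the median was -0.17 without the same library and 0.06 after quantile normalization. Oocyte and eggshell genes (33) and germline genes (44) had medians of 0.00, each with 0 genes at that p. Of 30 embryo genes 23 were higher, with 5 at that p and 0 lower, beside 1.34% of all genes outside the stretch higher at that p. The median of 0.12 became 0.05 without replicate 4 of daf-2. The endoderm regulator end-3 is among the 5 (4.16, 4.13, 4.19 and 4.28 in daf-2 and 4.48, 4.41, 4.28 and 4.35 in the double mutant). It differed by 0.19 (SE 0.07), and by -0.40 in the wild-type background. The part of these shifts in the results above was not tested. Without replicate 4 of daf-2 F56A4.3, irld-53, Y32B12B.2 and dyf-3 were called, as were Y19D10A.5 and C01B4.8.

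Genes of basic cell functions had list medians between -0.08 and 0.04. Outside the stretch 3.39% of all genes had an unadjusted p under 0.05. Cytosolic ribosomal protein genes (80) had a median of -0.05 with 68 lower and 0 at an unadjusted p under 0.05, proteasome genes (33) had 0.04 with 25 higher and 0 at that p, and genes of the respiratory chain (52) had 0.00 with 1 at that p. The last was cox-7C, higher by 0.29. Muscle sarcomere genes (46) had a median of -0.01, genes of glycolysis and the TCA and glyoxylate cycles (41) of -0.04, and genes of fatty acid desaturation, elongation and lipid stores (41) of -0.02. In the last list pod-2, the acetyl-CoA carboxylase gene, had -0.48 (SE 0.22), with overlap. Histone genes (67) had a median of -0.08, with 51 lower and 16 higher. At that p 4 were lower (5.97%), beside 2.05% of all genes outside the stretch. Among the 4 was his-61, with 6.50, 6.48, 6.29 and 6.35 in daf-2 and 6.13, 5.79, 5.86 and 6.08 in the double mutant (-0.44, SE 0.13). Histone transcripts mostly lack the poly(A) tail on which these libraries were primed. Argonaute and small RNA genes (44) had a median of -0.04 with 1 higher, eri-1 (0.25).

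Lists of nervous system genes had medians close to 0. Of 77 neuropeptide genes 5 were higher and 2 lower at an unadjusted p under 0.05. This is 9.09%, beside 3.39% of all genes outside the stretch, and the median was 0.00. flp-13, of the FMRFamide-like peptides, had 3.71, 3.66, 3.68 and 3.67 in daf-2 and 3.90, 3.87, 3.92 and 3.85 in the double mutant (0.21, SE 0.07). flp-3, of the same family, had 4.71, 4.92, 4.97 and 5.07 against 5.28, 5.31, 5.13 and 5.07 (0.28, SE 0.10). Of 41 genes of neurons and synapses 1 was lower, egl-8, which encodes a phospholipase C that acts at synapses (-0.26, SE 0.12), and the median was -0.05. The 6 genes of a male list had a median of -0.01, and dmd-5, a DM domain transcription factor gene, was at 0.34 (SE 0.15). The insulin/EGF-receptor L domain family had 2 tested members outside the stretch, with a median of -0.05.

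By chromosome, the share of genes outside the stretch at an unadjusted p under 0.05 ran from 2.78% on III to 4.03% on X. Of the 20 genes of the mitochondrial genome 18 were higher in the double mutant, with a median of 0.12, and 1 was at that p.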

How the data were processed

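The 24 libraries were grouped by the genotype in the labels. The authors prepared non-stranded, poly(A)-primed Smart-seq2 libraries and assigned paired-end reads to WBcel235 transcripts (Ensembl) with Kallisto, which divides reads among transcripts that match equally well. The deposited values are rlog values, on a log2 scale and 1 per gene and library, normalised by the authors in separate tables for the daf-2 and wild-type backgrounds. Tests stayed within a table. Counts were not used here, so depth is unknown, no counting interval can be given, and precision is that of 4 replicates.

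Genes with a mean rlog of 3 or more over the 8 columns were kept. A mean per genotype was fitted to the 12 libraries of the daf-2 table with limma 3.58.1 (R 4.3.3; eBayes with a trend, two-sided, Benjamini-Hochberg over all 14190 genes). Called means an adjusted p under 0.05 and a change above 1.5-fold. Named were bcl-11, daf-2, daf-16, called genes, tested genes of the stretch, the 10 higher and 10 lower genes outside it with the smallest p among those with 1 direction in 4 pairs and no overlap, and 2 genes per list with the smallest p. Members and the 35 gene lists were chosen with earlier results of these data known.

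The labels carry a batch number equal to the replicate number, and this label alone is the ground for the pairing. Deviations of same-numbered libraries correlated with r = 0.389, 0.137, 0.061 and 0.069 for numbers 1 to 4, against at best 0.087, 0.163, 0.248 and 0.283 for a differently numbered library, so only number 1 correlated best with its own. The replicate block was an alternative, with other filters, scalings, variance models and left-out libraries. Whether replicates are separate cultures is not stated, so p-values measure only the spread between these libraries. Names and positions come from Ensembl 115 (WBcel235) and, where a name is shared, from RefSeq of the same assembly. The scripts were tested on simulated data.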

Additional observations from a re-analysis of the deposited data

Results flagged for a closer look

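In 6 of 80 groups of 4 libraries over the named genes, 1 library lay apart from the other 3, by the gap to its nearest neighbour relative to the range. Chance flags about 1 in 20 groups. Y19D10A.5 and its identical partner C01B4.8 had 5.55 in replicate 4 of daf-2, against 5.35 to 5.38 in the others. F56A4.10 had 4.17 in replicate 1 of daf-2;bcl-11(bon144), against 3.18 to 3.25. epg-4 had 9.47 in replicate 2 of daf-2, against 9.55 in the others. amt-1 had 8.52 in replicate 2 of daf-2;bcl-11(bon144), against 8.66 to 8.69. M04C9.4 had 6.02 in replicate 4 of daf-2, against 5.65 to 5.71.

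The effect of bon144 on Y71H2AM.25 had opposite signs in the backgrounds, 0.39 in all 4 pairs with daf-2(e1370) and -0.93 against wt. The tables were normalised separately and the difference was not tested.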

How the results depend on the processing

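F56A4.3, irld-53 and Y32B12B.2 were called in all alternatives run. Of 8 called genes, 3 were left when only the 8 libraries were fitted (1 outside the stretch, 2 inside, with dyf-3 lost). When identical genes were counted once, 5 were left (3 inside), and the values shared by C01B4.6 and Y19D10A.16 were no longer called. Without 1 library, 3 to 6 genes were called, 1 to 2 outside and 2 to 4 inside, with F54D8.10 newly called without replicate 1 of daf-2. Library weights gave 11, with saeg-2 as the third gene outside. The replicate block gave 8, of which 6 were shared, and moved no call other than those given above. Quantile normalization and median centring gave 8, with Y19D10A.5 and C01B4.8 in place of C01B4.6 and Y19D10A.16. The median of the stretch was 0.18 with no filter on low values and 0.78 with a mean rlog of 5 or more. The cause was not tested.

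The bcl-11 difference was between -0.19 and 0.013 without 1 library, 0.013 being without replicate 4 of daf-2 (exact permutation test, p = 0.886), and 0.026 with library weights. With the replicate block, an exact sign-flip test over 4 pairs gave p = 1 and cannot go below 0.125. Without 1 library, the difference of daf-2 lay between -0.042 and 0.15, that of daf-16 between -0.16 and 0.052, and that of F56A4.10 between -0.042 and 0.29. Over all settings, values of single named genes newly passed the call 13 times and lost it 49 times. Depth is unknown and rlog understates differences of weakly expressed genes.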
